A study of Mus musculus with 77 samples.

Results

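Notch signalling was described in whole mouse retina across oxygen-induced retinopathy (OIR), a model of retinopathy of prematurity, through 9 genes of the pathway. These were the ligands *Dll4* and *Jag1*, the receptors *Notch1* and *Notch4*, and the targets *Hey1*, *Hey2*, *Heyl*, *Hes1* and *Hes5*. Every probe whose transcript accession belongs to one of these symbols was taken, which gave 10 of the 55681 probes that are not controls and 9 of the 21154 genes with a symbol. *Notch1* had 2 probes and each other gene had 1. The study hybridised the retinal RNA of 77 C57BL/6 mice, 1 two-color array per mouse. Litters were allocated on postnatal day (P) 7 to 75% oxygen (OIR mice) or to 21% oxygen (control mice), stayed in the chambers until P12 and were kept in room air afterwards. The P12 groups had 13 OIR and 12 control animals, those of P17 again 13 and 12, and those of P28 had 13 and 14. No transgene is named in the labels, and a whole litter received the same gas. The litter of a mouse is not in the labels, so that an effect of the litter cannot be told apart from that of oxygen, and the p-values measure the spread between these mice only.

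In the Notch pathway a ligand on one cell binds a receptor on its neighbor, the receptor is cut by proteases, and its intracellular part joins the DNA-binding protein RBPJ and switches on genes of the Hes and Hey families, which encode repressors. In growing retinal vessels Dll4 is high in the tip cells at the front, Notch1 in the following cells limits the number of tips, and Jag1 counteracts Dll4. In the developing neural retina the same pathway keeps progenitors from becoming neurons and favors Mueller glia. In OIR, high oxygen removes central capillaries, and the hypoxia that follows the return to room air drives new vessels.

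Binding of RBPJ was not measured here, and promoters are shown only for the targets in which its core motif was found, to give the letters behind the word target. The promoter table (RefSeq, GRCm38.p6, 250 bases before to 50 bases after a start) matched 6 of the 9 genes, namely *Dll4*, *Jag1*, *Notch1*, *Notch4*, *Hey2* and *Hes5*. The motif TGGGAA was searched on both strands, and the capitals mark it below, as TTCCCA where it lies on the opposite strand. The *Hes5* stretch lies at chr4:154960673-154960922 (plus strand) and that of *Hey2* at chr10:30842774-30843033 (minus strand), both printed 5′ to 3′ in the direction of the gene.
Hes5: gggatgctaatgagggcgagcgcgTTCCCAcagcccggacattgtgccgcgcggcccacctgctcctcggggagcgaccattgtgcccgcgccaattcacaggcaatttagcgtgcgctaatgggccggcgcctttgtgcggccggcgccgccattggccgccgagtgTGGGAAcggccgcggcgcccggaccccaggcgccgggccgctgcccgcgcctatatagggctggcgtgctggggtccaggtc
Hey2: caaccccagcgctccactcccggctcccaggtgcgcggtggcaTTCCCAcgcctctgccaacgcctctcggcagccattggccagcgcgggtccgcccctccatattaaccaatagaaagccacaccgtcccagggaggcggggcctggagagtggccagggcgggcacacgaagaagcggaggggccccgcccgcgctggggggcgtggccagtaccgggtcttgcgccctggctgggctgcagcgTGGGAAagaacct
In *Hes5* the motif lay 226 and 82 bases before the start, and in *Hey2* the copy nearer to the start lay 3 bases before it. The windows of *Dll4*, *Jag1*, *Notch1* and *Notch4* did not hold these letters. Of 32851 promoter windows of 300 bases, 25.6% held the motif at least once and 3.79% held it at least 2 times.

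All levels below are log2 ratios of the retina channel to a universal mouse reference RNA, so that a value is set only against values of its own probe. The labels assign the retina to Cy5, but the ratios were read as Cy3 over Cy5, opposite to the labels. This was done because the rod genes *Sag*, *Gnat1*, *Pde6b*, *Nrl* and *Pdc* were above 0 in this ratio and well above background in Cy3 on all 77 arrays. The arrays fell into 2 classes by the 75th percentile of the background-subtracted retina signal, which was 73 or lower on 49 dim arrays and 122.5 or higher on 28 bright arrays. Bright arrays were 1 of 13 OIR and 2 of 12 control mice on P12, 2 of 13 and 3 of 12 on P17, and 11 of 13 and 9 of 14 on P28. The dim arrays had a median of 20074 probes well above background and the bright arrays 32390.5. Fits with the class as a term, on dim arrays only and, at P28, on bright arrays only were added after the values were seen.

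The genes differed in how often they were measured. *Jag1*, *Hey1* and *Hes5* passed as well above the retina background on all 77 arrays. The brighter *Notch1* probe (A_55_P2171897) was so on 10 of 13 P12 OIR arrays and on at least 10 arrays of each other group. *Dll4* was well above background on no array of P12 and of P17 control mice, on 3 of 13 arrays of P17 OIR mice, and on 7 of 14 and 8 of 13 arrays of P28 control and OIR mice. *Hey2* was measured on 0 to 3 arrays per group on P12 and P17, and *Heyl* on 1 to 4. *Hes1* reached 2 to 7 and *Notch4* 5 to 9 arrays per group on these days. The dimmer *Notch1* probe (A_55_P2047168) passed on 3 arrays in all, 1 of P12 OIR and 2 of P28 OIR mice. Its log2 difference at P17 was 0.038 (SE 0.027, adjusted p = 0.639 in limma). The probe passed on no P17 array in either channel, so no direction is read from this value. The reference channel was dim for some genes. There *Hes5* was well above background on 1 of 13 OIR and 2 of 12 control arrays at P12. At P17 it was so on 1 of 13 and 4 of 12, and at P28 on 10 of 13 and 9 of 14. *Hey2* and *Heyl* were so on no array, and *Dll4* on 1 of 13 P17 OIR arrays and on none of the other groups. *Notch4* and *Hes1* passed there on 5 to 7 arrays per group on P12 and P17. The denominators of these ratios, also of the deposited ones, thus lay near background on many or all arrays.

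**Figure D1:**
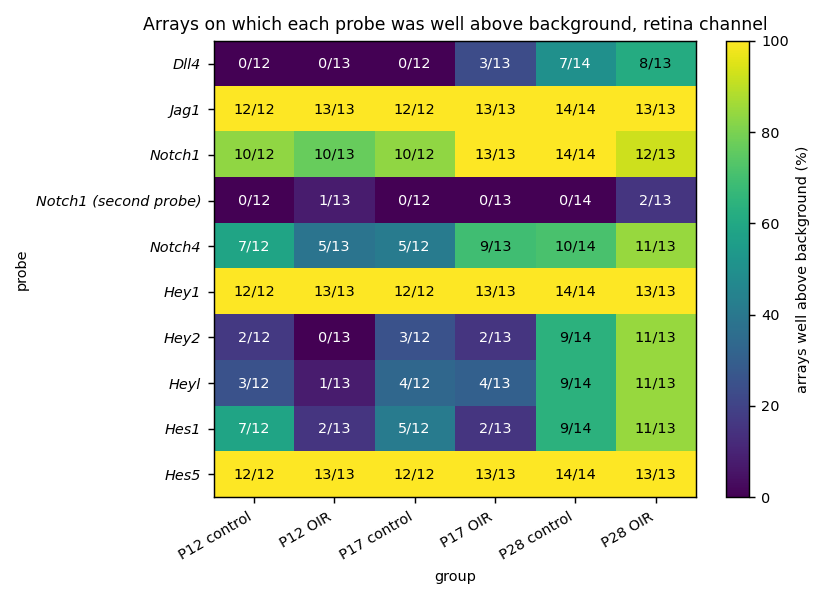
Number of arrays on which each of the 10 probes was well above background in the retina channel, by group; the color gives the share of arrays in percent. *Jag1*, *Hey1* and *Hes5* were measured on every array, and *Dll4* on none of the P12 arrays.

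None of the 9 genes passed the test between OIR and control mice on any day. Of all 55681 probes, 13 passed on P12 (0.0233%), 631 on P17 (1.13%) and 34 on P28 (0.0611%), by limma at an adjusted p under 0.05. At an unadjusted p under 0.05 there were 0 of 9 genes on P12, 2 on P17 (*Notch1* and *Hes5*) and 1 on P28 (*Notch4*), against 1740, 5772 and 4144 of all probes. The 9 genes had a median log2 difference of -0.063 at P12, of -0.0018 at P17 and of 0.068 at P28, where all probes had -0.00056, 0.00097 and 0.00029. OIR and control ranges overlapped for each gene on each day. A p above the threshold does not show equal levels, and the intervals below hold for ratios with an offset of 50 added to both signals, not for the change of the transcript. In whole retina, fewer cells of a type and less RNA per cell cannot be told apart.

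**Figure D2:**
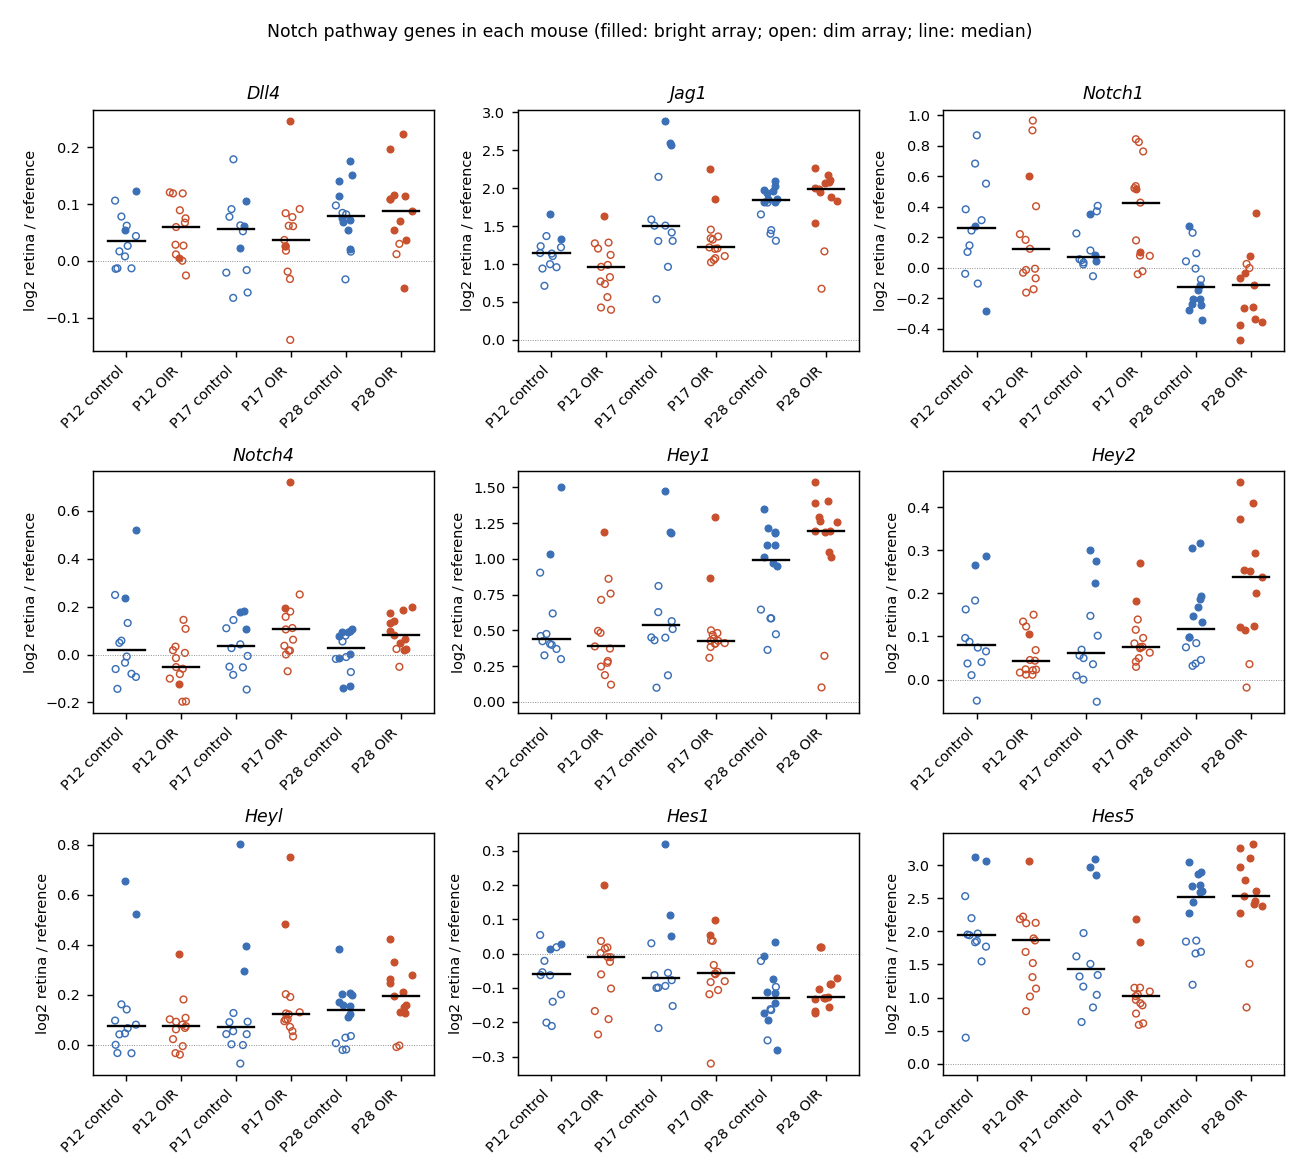
Log2 ratio of retina to reference of the 9 genes in each mouse (brightest probe of each gene), by day and group; filled points are bright arrays, open points dim arrays, and the line is the median of the group. The bright arrays are the highest points of *Hes5* and *Hey1* on P12 and P17, and they make up most of P28.

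The ligand *Jag1* was lower in most OIR mice on P12 and P17, without passing the test. At P12 the lowest, median and highest levels were 0.71, 1.14 and 1.66 in control and 0.40, 0.96 and 1.63 in OIR mice. At P17 they were 0.54, 1.51 and 2.89 in control and 1.02, 1.22 and 2.25 in OIR mice. The OIR mice thus lay inside the control range at P17, and 11 of 13 were under the control median. The log2 difference at P17 was -0.35 (SE 0.21, 95% interval -0.79 to 0.093, adjusted p = 0.592 in limma), and with the array class as a term it was -0.24 (adjusted p = 0.342). In the ratios the authors deposited, each of the 13 OIR mice was under the control median of 3.36, with a log2 difference of -0.33 (SE 0.11, adjusted p = 0.111). At P28 the levels were 1.31, 1.84 and 2.10 in control and 0.67, 1.99 and 2.27 in OIR mice, with a log2 difference of 0.044 (SE 0.13, adjusted p = 0.927).

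The tip cell ligand *Dll4* was too dim for a comparison on P12 and P17. At P17 the levels were -0.065, 0.056 and 0.18 in control and -0.14, 0.037 and 0.25 in OIR mice (adjusted p = 0.997 in limma), and no fold is drawn from them. At P28 the levels were -0.033, 0.078 and 0.18 in control and -0.047, 0.088 and 0.22 in OIR mice, and the 95% interval of the log2 difference was -0.046 to 0.058. An offset of 50 was added to every signal before the ratio, which draws ratios of dim spots toward 0. The narrow intervals of *Dll4*, *Notch1*, *Notch4*, *Hey2*, *Heyl* and *Hes1* therefore do not limit the change of the transcript. The intervals of *Jag1*, *Hey1* and *Hes5* are bound to the offset as well. In P17 OIR mice their mean levels were 1.34, 0.52 and 1.09 with it, and 2.95, 1.58 and 4.39 in the deposited ratios.

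The receptor *Notch1* was higher in most OIR mice on P17, again without passing the test. The lowest, median and highest levels were -0.057, 0.068 and 0.41 in control and -0.044, 0.43 and 0.84 in OIR mice. The OIR median lay above the highest control mouse, while the lowest mice of both groups were close, and 11 of 13 OIR mice were over the control median. The log2 difference was 0.23 (SE 0.10, 95% interval 0.021 to 0.44, adjusted p = 0.414 in limma), and OIR means were higher on 5 of the 6 slides that held both groups. In the deposited ratios the difference was 0.57 (SE 0.22, adjusted p = 0.209), and with an offset of 0 it was 0.53 (adjusted p = 0.383). At P12 the levels were -0.28, 0.26 and 0.87 in control and -0.16, 0.12 and 0.97 in OIR mice, with a log2 difference of -0.034 (SE 0.14). At P28 the log2 difference was -0.053 (SE 0.079).

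The receptor *Notch4*, which is expressed mainly in endothelial cells, was lower in most OIR mice on P12 and higher in most on P17. At P12 the levels were -0.14, 0.020 and 0.52 in control and -0.20, -0.052 and 0.14 in OIR mice, and 10 of 13 OIR mice were under the control median. At P17 they were -0.15, 0.035 and 0.18 in control and -0.070, 0.11 and 0.72 in OIR mice, and 9 of 13 were over it. OIR means were lower on 6 of 7 slides at P12 and higher on 6 of 6 slides at P17. Neither difference passed the test, with -0.11 on the log2 scale (SE 0.059, adjusted p = 1) at P12 and 0.10 (SE 0.063, adjusted p = 0.605) at P17. In the deposited ratios, which carry no such offset, 12 of 13 OIR mice were over the control median at P17. The log2 difference there was 0.95 (SE 0.27, adjusted p = 0.057). The reference of *Notch4* was well above background on 6 of 13 OIR and 7 of 12 control arrays at P12. At P17 it was so on 7 of 13 and 6 of 12, so the deposited ratios rest partly on denominators near background. The change of the OIR effect from P12 to P17 was 0.21 on the log2 scale (SE 0.075, adjusted p = 0.548). In the retina channel alone this change was 0.51 (SE 0.12, adjusted p = 0.00544), where 1.72% of all probes were called. At P28 the log2 difference was 0.072 (SE 0.031, 95% interval 0.0085 to 0.14, adjusted p = 0.647), and OIR means were higher on all 3 slides that held both groups.

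**Figure D3:**
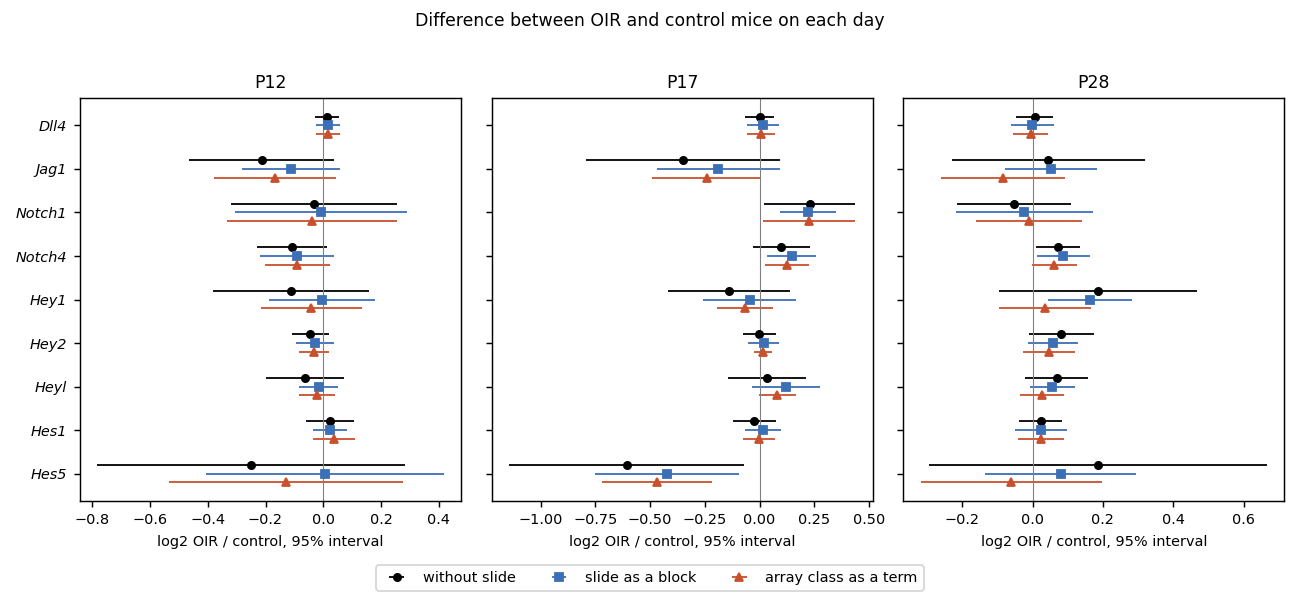
Log2 difference between OIR and control mice for each gene on P12, P17 and P28 with its 95% interval, from limma fits without the slide (black circles), with the slide as a block (blue squares) and with the array class as a term (red triangles); the axes of the days differ in range. *Hes5* on P17 lies below 0 in all 3 fits, and its interval narrows when the class enters the fit.

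The target *Hes5*, a repressor expressed in neural progenitors and Mueller glia, was lower in most OIR mice on P17. Its log2 difference was the largest of the 9 genes with the offset of 50, while in the deposited ratios that of *Notch4* was larger. The lowest, median and highest levels were 0.63, 1.42 and 3.09 in control and 0.59, 1.02 and 2.18 in OIR mice. The ranges overlapped, and 11 of 13 OIR mice were under the control median. The log2 difference was -0.61, a fold of 1.52 (SE 0.26, 95% interval -1.14 to -0.070, adjusted p = 0.395 in limma). With the offset of 50 the levels differed by array class. On dim arrays 11 OIR mice had 0.59 to 1.15 and 9 control mice 0.63 to 1.98. On bright arrays 2 OIR mice had 1.84 and 2.18 and 3 control mice 2.86 to 3.09. The dim arrays overlapped and these few bright arrays did not. In the deposited ratios the classes were alike at P17. Their means were 4.39 on dim and 4.36 on bright arrays of OIR mice, and 5.02 and 5.09 in control mice. On the other days the deposited means were lower on bright arrays. At P12 they were 5.72 on dim arrays and 4.82 on 1 bright array in OIR mice, and 5.96 and 4.24 in control mice. At P28 they were 4.96 and 4.63, and 5.30 and 4.49. With the offset of 50, OIR means at P17 were lower on all 6 slides that held both groups, by 0.030 to 0.97, although each slide held only 1 or 2 mice of a group. With the array class as a term the log2 difference was -0.47 (SE 0.12, adjusted p = 0.0274), in a fit that called 3.9% of all probes. It was -0.42 (SE 0.16, adjusted p = 0.278) with the slide as a block, -0.35 (SE 0.13, adjusted p = 0.26) on dim arrays only and -0.65 (SE 0.24, adjusted p = 0.182) in the deposited ratios.

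**Figure D4:**
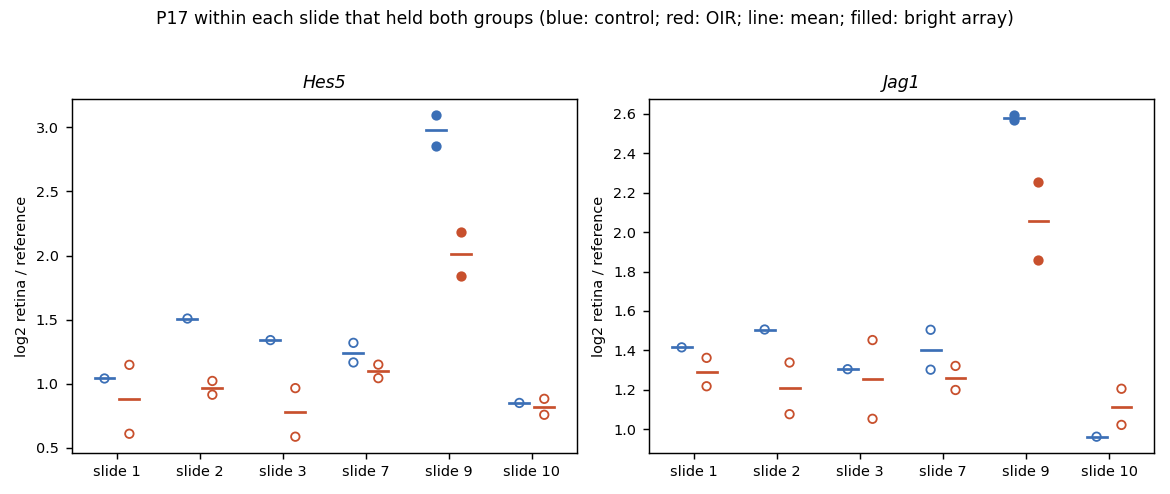
Log2 ratio of retina to reference of *Hes5* and *Jag1* on P17 within each of the 6 slides that held both groups; blue points are control mice, red points OIR mice, lines are means, and filled points are bright arrays. The OIR mean of *Hes5* lies below the control mean on every slide, and that of *Jag1* on 5 of 6.

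On the other days *Hes5* levels overlapped widely. At P12 they were 0.39, 1.95 and 3.12 in control and 0.79, 1.86 and 3.07 in OIR mice, with a log2 difference of -0.25 (SE 0.26). At P28 they were 1.19, 2.52 and 3.05 in control and 0.85, 2.54 and 3.32 in OIR mice, with a log2 difference of 0.19 (SE 0.23). The change of the OIR effect from P12 to P17 was -0.36 (SE 0.37, adjusted p = 1), so a difference particular to P17 was not shown. Of Mueller glia, in which *Hes5* is also expressed, 0 of 8 marker genes passed the test on any day. Their mean on an array ranged from 1.76 to 2.53 in P17 OIR mice and from 1.49 to 2.89 in P17 control mice, and the median log2 difference of the markers was -0.34. Their part in the *Hes5* values was not tested.

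Among the other targets, *Hey1*, a repressor active in arterial endothelium and in neural tissue, was measured on every array. Its levels at P17 were 0.10, 0.54 and 1.47 in control and 0.31, 0.43 and 1.29 in OIR mice. The log2 difference was -0.11 (SE 0.13) at P12, -0.14 (SE 0.14) at P17 and 0.19 (SE 0.14) at P28. The 3 highest control and the 2 highest OIR levels at P17 came from the bright arrays, which lay between 0.87 and 1.47 while the dim arrays lay between 0.10 and 0.81. At P28, 11 of 13 OIR mice were over the control median. With the class as a term the P28 difference was 0.035 (adjusted p = 0.965 in limma), and on bright arrays only it was 0.14 (SE 0.061, adjusted p = 0.542). The dim arrays went the other way, with a mean of 0.21 in 2 OIR mice and of 0.53 in 5 control mice.

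The targets *Hey2*, *Heyl* and *Hes1* stayed close to the background on P12 and P17. *Hey2*, which marks arterial endothelium, was 0.032, 0.12 and 0.32 in P28 control and -0.019, 0.24 and 0.46 in P28 OIR mice, a log2 difference of 0.082 (SE 0.045, adjusted p = 0.683). *Heyl*, found in vascular smooth muscle, differed by 0.068 at P28 (SE 0.044, adjusted p = 0.701). At P17 its OIR means were higher on all 6 slides, with a log2 difference of 0.034 (SE 0.086). *Hes1*, which serves neural progenitors, differed by 0.023 at P12, by -0.024 at P17 and by 0.023 at P28, with SEs of 0.040, 0.048 and 0.030.

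Changes with age were tested within each group. From P12 to P17 in OIR mice, 1 of the 9 genes passed the test, beside 3.43% of all probes and 1.94% that passed as higher. *Notch4* rose by 0.18 on the log2 scale (SE 0.052, adjusted p = 0.0376). The rise was 0.16 with the class as a term (adjusted p = 0.0149), 0.17 with the slide as a block (adjusted p = 0.00732) and 1.32 in the deposited ratios (adjusted p = 0.00238), and the difference was 0.11 on dim arrays only (adjusted p = 0.0978) and 0.31 with median centring (adjusted p = 1). In control mice *Notch4* differed by -0.031 over the same days (SE 0.054). *Hes5* in OIR mice differed by -0.68 from P12 to P17 (SE 0.25, adjusted p = 0.174). It passed the test with the class as a term (-0.78, adjusted p = 0.000102), with the slide as a block (-0.81, adjusted p = 1.39e-05), on dim arrays only (-0.73, adjusted p = 0.00394) and in the deposited ratios (-1.26, adjusted p = 0.00137). These fits called 6.92%, 7.26%, 6.84% and 7.51% of all probes. With median centring the *Hes5* difference was -0.62 (SE 0.48) and did not pass. On dim arrays the *Hes5* median was 1.78 at P12 and 0.97 at P17 in OIR mice, and 1.90 and 1.32 in control mice.

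*Jag1* was higher at P17 than at P12 in both groups, without passing the test. In control mice, where 0 of 9 genes (1 at an unadjusted p under 0.05) and 1.28% of all probes were called in limma, the log2 difference was 0.54 (SE 0.17, adjusted p = 0.112). In OIR mice it was 0.41 (SE 0.16, adjusted p = 0.229). With the class as a term the rises passed in control (0.48, adjusted p = 0.00529, 3% of all probes called) and in OIR mice (0.35, adjusted p = 0.0356). They also passed in the deposited ratios, at 0.67 (adjusted p = 0.00032, 2.57% of all probes called) and 0.52 (adjusted p = 0.00213). On dim arrays only the differences were 0.28 (adjusted p = 0.364) and 0.34 (adjusted p = 0.0713). The OIR effect on *Jag1* changed by -0.14 between these days (SE 0.23, adjusted p = 1). Over all 9 genes, 0 passed for a change of the OIR effect from P12 to P17, where 0.48% of all probes were called, and 0 from P17 to P28, where 0.278% were called. At an unadjusted p under 0.05 there was 1 gene for each of these changes, *Notch4* for the first and *Hes5* for the second, against 2706 and 7804 of all probes.

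From P17 to P28 the array class changed together with the day. In OIR mice 5 of 9 genes passed the test beside 40.6% of all probes, and in control mice 0 of 9 passed in limma beside 13.4%, with 3 genes at an unadjusted p under 0.05. *Notch1* fell by 0.51 on the log2 scale in OIR mice (adjusted p = 9.9e-05). It fell by 0.43 with the class as a term (adjusted p = 0.00728, 16.9% of all probes called) and by 0.39 with the slide as a block (adjusted p = 0.0146, 17.2% called). It differed by -0.37 on dim arrays only (adjusted p = 0.588), of which P28 OIR mice had 2. In the deposited ratios *Notch1* fell by 1.56 (adjusted p = 9.98e-05), but with median centring in place of loess it was higher by 0.30 at P28 (adjusted p = 0.136), so its direction depends on the normalization. *Hes5* rose by 1.41 (adjusted p = 7.07e-06), by 0.50 with the class as a term (adjusted p = 0.0319), and differed by 0.30 in the deposited ratios (adjusted p = 0.421). *Hey1* rose by 0.57 (adjusted p = 0.000456), *Jag1* by 0.48 (adjusted p = 0.0127) and *Hey2* by 0.12 (adjusted p = 0.00841). With the class as a term these 3 differences were 0.045, -0.055 and 0.00057, with adjusted p-values of 0.776, 0.834 and 0.994.

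Endothelial cells are one of the cell types that use these genes, and some of their markers differed between OIR and control mice. Of 14 endothelial markers, 3 passed as lower and 0 as higher in OIR mice at P12, 0 as lower and 2 as higher at P17, and 0 at P28. The mean over the markers ranged from 0.060 to 0.59 in OIR and from 0.43 to 1.05 in control mice at P12. At P17 it ranged from 0.66 to 1.49 and from 0.23 to 1.14. *Tek* was well above background on no array of P12 and P17, and *Emcn* and *Erg* on none of P12 OIR and P17 control mice. Of 9 mural markers 2 were lower at P12 and 2 higher at P17. When each array's endothelial mean was subtracted, 8 of the 9 genes passed as higher in OIR mice at P12, where 94.1% of all probes passed, all but a few of them as higher. At P17, 8 genes passed as lower, where 78.6% of all probes passed and 78.3% as lower. The share of the 9 genes called was close to that of all probes. *Hes5* at P12 (0.15, SE 0.20, adjusted p = 0.463) and *Notch1* at P17 (-0.067, SE 0.13, adjusted p = 0.646) were the genes that did not pass. At P28, 2 of 9 genes, *Dll4* and *Heyl*, passed as lower, beside 55.8% of all probes and 55.7% as lower.

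Of 10 other ligands and receptors, *Egfl7* and *Notch3* passed the test between OIR and control mice. At P12, 1 passed as lower, beside 0.0233% of all probes, and at P17 2 passed as higher, beside 0.803%. *Egfl7*, a protein secreted by endothelial cells that binds Notch receptors, was 0.88, 1.21 and 1.66 in control and -0.0060, 0.31 and 0.83 in OIR mice at P12, where every OIR mouse lay below every control mouse. At P17 it was 0.71, 0.95 and 1.43 in control and 1.69, 2.15 and 2.55 in OIR mice, where every OIR mouse lay above. *Egfl7* fell by 0.86 at P12 (SE 0.10, adjusted p = 7.68e-05) and rose by 1.09 at P17 (SE 0.092, adjusted p = 4.47e-08), and at P28 it differed by -0.048 (SE 0.066). *Notch3*, the receptor of mural cells, was -1.93, -1.14 and -0.51 in control and -1.01, -0.59 and -0.044 in OIR mice at P17. All 13 OIR mice were over the control median, and the rise was 0.63 (SE 0.14, adjusted p = 0.0174), or 1.28 in the deposited ratios (adjusted p = 1.01e-05). The mean of the mural markers moved with it, at -0.12 to 0.33 in OIR and -0.43 to -0.16 in control mice, and its part was not tested. The change of the *Notch3* effect from P12 to P17 was 0.56 (SE 0.21, adjusted p = 0.608), and it passed with the slide as a block (0.61, adjusted p = 0.00283) and with the class as a term (0.55, adjusted p = 0.0327).

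The remaining lists held few calls. Of 24 measured genes of ligand and receptor processing, 13 of the nuclear complex and its regulators and 7 proneural factors, 0 passed on any day. The ubiquitin ligase gene *Neurl1a*, named after its values were seen, differed by 0.30 at P17 (SE 0.12, adjusted p = 0.374). It passed with the slide as a block (0.37, adjusted p = 0.006), with the class as a term (0.36, adjusted p = 0.00824) and in the deposited ratios (0.41, adjusted p = 0.000217). Of 14 other Hes genes and related repressors, *Bhlhe40*, a repressor induced by hypoxia, passed at P17. Its levels were -1.35, -1.10 and -0.55 in control and -0.83, -0.68 and -0.29 in OIR mice, with all 13 OIR mice over the control median and a rise of 0.41 (SE 0.082, adjusted p = 0.00834). The median log2 differences at P17 were 0.076 for the other ligands and receptors, 0.038 for processing, 0.0023 for the nuclear complex, 0.010 for the repressors and -0.023 for the proneural factors.

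**Figure D5:**
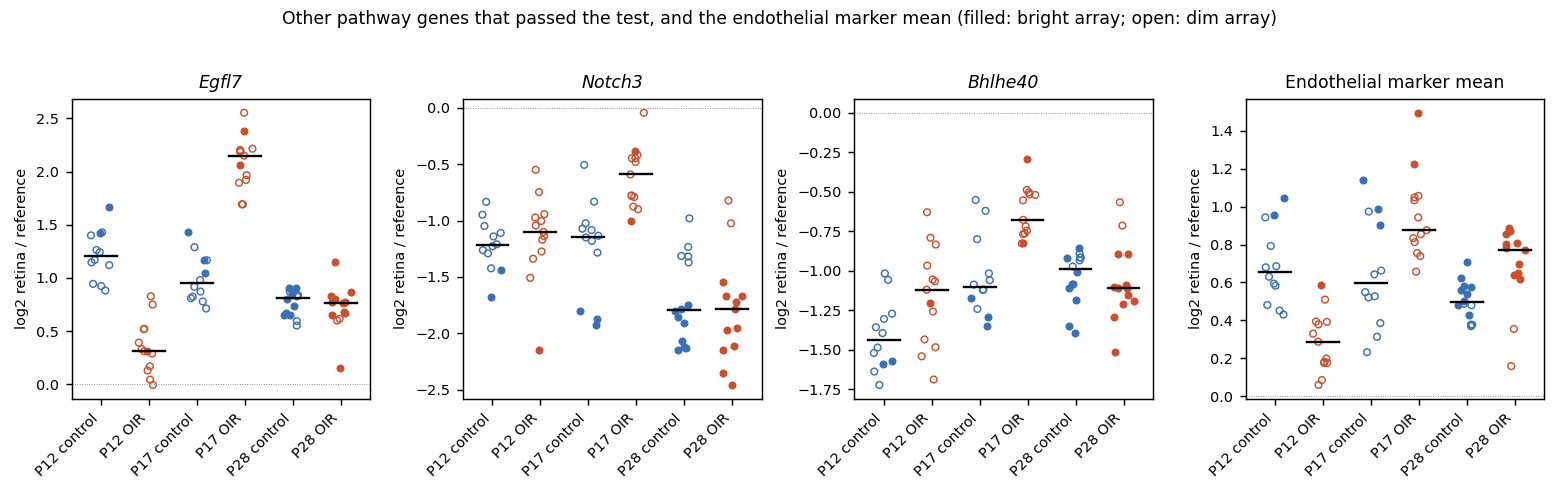
Log2 ratio of retina to reference of *Egfl7*, *Notch3* and *Bhlhe40* and the mean of 14 endothelial markers in each mouse, by day and group; filled points are bright arrays, open points dim arrays, and the line is the median. *Egfl7* separates OIR from control mice without overlap on P12 and P17 and not on P28.

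Pearson correlations over the 77 arrays were taken to name the genes most like each member, as a description over arrays that share their brightness class. *Notch4* was most like *Lama4* (r = 0.82), *Mmrn2* (r = 0.80) and *Itih5* (r = 0.78), and on the 49 dim arrays most like *Mmrn2* (r = 0.72), *Rasip1* (r = 0.70) and *Cldn5* (r = 0.69). *Heyl* was most like *Dph7* (r = 0.86), *Zfp507* (r = 0.86) and *Nhsl2* (r = 0.85) over all arrays, and like *Meox1* (r = 0.65), *Gja4* (r = 0.60) and *Cdh5* (r = 0.59) on the dim arrays. *Hes5* was most like *Lhx3* (r = 0.92), *Jakmip2* (r = 0.92) and *Zcchc12* (r = 0.92), and *Lhx3* was again among its 3 nearest genes on dim and on bright arrays. *Jag1* was most like *Tlcd5* (r = 0.95), *Pfkfb2* (r = 0.95) and *St8sia1* (r = 0.94). *Hey1* was most like *Cntnap2* (r = 0.97), *Kcnmb4* (r = 0.96) and *Reep1* (r = 0.96). *Notch1* was most like *B020031M17Rik* (r = 0.95), *Pnma2* (r = 0.94) and *Pinx1* (r = 0.93), the same 3 genes as on the dim arrays. For the dimmer genes, the nearest were *Wdr5b* (r = 0.84) for *Hey2*, *Eif2ak3* (r = 0.71) for *Hes1* and *C1qa* (r = 0.59) for *Dll4*.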

How the data were processed

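Per the file headers, the authors scanned 62976 spots per array and extracted median signals and backgrounds as intensity values with Agilent Feature Extraction 10.7.3.1. The table deposited by the authors equals the log2 ratio of processed Cy3 to Cy5 signals (tolerance 0.001) and its column medians lie between -0.13 and 0.0099. Here, both channels were corrected with normexp (offset 50) and loess in limma 3.58.1 (R 4.3.3, with the package data.table, version 1.17.8). Outlier spots (0.592 to 0.951%) were left out, spots of a probe averaged, and ratios turned to retina over reference. For each day OIR was tested against control in limma, with p-values adjusted across 55681 probes (Benjamini-Hochberg). Changes between days were contrasts in a model of 6 groups. A gene was represented by its brightest probe. Alternatives were the deposited ratios, no background subtraction, an offset of 0, median centring, the retina channel alone, a filter on probes (well above background on 12 arrays), slide, and array class (added after seeing the data). The members and lists were chosen with earlier results of these data known. Named were the 9 genes, genes called in the lists, the 3 most alike genes of each, and *Neurl1a*, chosen after its values were seen. The number of arrays limits the precision.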

Additional observations from a re-analysis of the deposited data

Results flagged for a closer look

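The OIR effect on *Egfl7* differed between days in the model of 6 groups. Its change from P12 to P17 was 1.95 on the log2 scale (SE 0.12, adjusted p = 6.93e-21 in limma), where OIR mice were under the control median at P12 in 13 of 13 cases and over it at P17 in 13 of 13 cases. From P17 to P28 the effect changed by -1.13 (SE 0.12, adjusted p = 1.24e-09). With the slide as a block the changes were 1.99 and -1.19. The median log2 difference of 14 endothelial markers was -0.34 at P12, 0.085 at P17 and 0.16 at P28. Their mean gave another order. With each array's endothelial mean subtracted, the median log2 difference of all probes was 0.40 at P12, -0.29 at P17 and -0.18 at P28. The mean of the markers was thus higher in OIR mice by more at P17 than at P28. The part of these markers in the *Egfl7* values was not tested. For none of the 9 Notch genes did the test of a difference between days pass in this model.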

How the results depend on the processing

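No paired analysis was possible because every mouse has its own number. Under the other settings, 214 log2 differences of single genes between OIR and control mice kept their direction and their side of the threshold, 37 changed sign and 1 became called, and 72 counts of called genes stayed within 1.5 times of the reported count while 38 did not. The counts of the 9 genes called between OIR and control mice remained 0 on each day under every setting, except 1 on P17 with the array class as a term (*Hes5*, -0.47). For the OIR effect from P12 to P17 the count was 1 in the retina channel alone. From P12 to P17 in OIR mice the count of 1 became 3 in the deposited ratios, without background subtraction, with an offset of 0, with the slide as a block and with the class as a term, 4 in the retina channel alone and 0 with median centring. In control mice the count of 0 became 1 in the deposited ratios, without background subtraction, with an offset of 0, in the retina channel alone, with the slide as a block and with the class as a term. From P17 to P28 in OIR mice the count of 5 became 2 with an offset of 0 and with the slide as a block and 0 on dim arrays only. In control mice the count of 0 became 2 in the deposited ratios and with the class as a term, 1 without background subtraction and 5 with median centring. With median centring, adjusted p-values of the change from P17 to P28 lay close to unadjusted ones (*Jag1* in control mice: 0.00936 and 0.0065 in limma). A large part of all probes was thus called for that change, which does not hold for the other comparisons between days or groups. Most counts here stand without the share of all probes called under the same setting. They do not show that these genes changed more often than other probes. Relative to the endothelial mean, the count of 8 on P12 became 4 in the deposited ratios, 2 with an offset of 0 and 5 with median centring, and the count of 8 on P17 became 3 under each of these. The count of 2 on P28 became 0 in the deposited ratios, with an offset of 0, with median centring and with the class as a term, 1 without background subtraction, in the retina channel alone, without dim probes and on dim arrays only, 7 with the slide as a block and 5 on bright arrays only. Of the recomputed values of the 6 changes with age that were called, 33 stayed called in the same direction, 14 were no longer called and 7 changed sign. From P17 to P28 in OIR mice, those that changed sign were *Jag1* at -0.060 in the deposited ratios, -0.14 with an offset of 0, -0.055 with the class as a term and -0.29 on dim arrays, *Notch1* at 0.30 with median centring, and *Hey1* at -0.21 and *Hey2* at -0.068 on dim arrays. The cause was not tested.

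The log2 differences between OIR and control mice that changed sign were ones that had not passed the test. At P12, *Dll4* was -0.38 in the deposited ratios, *Hes1* was -0.0040 in the deposited ratios, -0.059 with median centring and -0.072 in the retina channel alone, *Heyl* was 0.10 with an offset of 0 and 0.0026 on dim arrays and *Hes5* was 0.0045 with the slide as a block. At P17, *Dll4* was -0.0097 on dim arrays, *Hes1* was 0.19 in the deposited ratios, 0.28 with an offset of 0, 0.016 with the slide as a block and 0.016 on dim arrays and *Hey2* was 0.020 without background subtraction, 0.024 with median centring, 0.037 in the retina channel alone, 0.019 with the slide as a block, 0.016 with the class as a term and 0.030 on dim arrays. At P28, *Dll4* was -0.091 with an offset of 0, -0.0094 with median centring, -0.0074 in the retina channel alone, -0.0011 with the slide as a block, -0.0059 with the class as a term and -0.029 on dim arrays. *Jag1* at P28 was -0.086 in the deposited ratios, -0.0100 without background subtraction, -0.16 with an offset of 0, -0.085 with the class as a term and -0.60 on dim arrays. *Hes5* at P28 was -0.10 in the deposited ratios, -0.060 with the class as a term and -0.47 on dim arrays, and *Notch1* was 0.16 with median centring. On the dim arrays of P28, which were 2 OIR and 5 control mice, *Notch4* was -0.020, *Hey1* -0.32, *Hey2* -0.046 and *Heyl* -0.012. The lowest adjusted p of the 9 genes between OIR and control mice was 0.0274 with the class as a term and between 0.057 and 0.725 under the other settings.

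Over all probes the calls at P17 were 447 higher and 184 lower, but 1031 and 1143 with the class as a term, 879 and 784 in the retina channel alone, and 4 and 0 with median centring. At P28 they were 31 and 3, but 1923 and 2641 on dim arrays. From P12 to P17 in OIR mice they were 1082 and 827, but 52 and 3 with median centring. The retina signal limits the precision for *Dll4*, *Hey2*, *Heyl* and *Hes1*, which were well above background on few P12 and P17 arrays. The dim reference signal limits it for *Dll4*, *Notch4*, *Hes1*, *Hes5*, *Hey2* and *Heyl*.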
